A study of Homo sapiens with 18 samples.

Results

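The 44 genes described here are the collagen genes of U2OS-MycER cells, taken as every gene symbol of the form COL, a number, A and a number, out of 23399 genes in the expression table. They comprise 11 fibrillar collagens, 8 basement membrane collagens (the 6 type IV chains, COL15A1 and COL18A1) and 25 others. U2OS is a human osteosarcoma line, and the cells carried a retroviral MycER transgene, a fusion of Myc with the estrogen receptor that 4-hydroxytamoxifen (OHT) activates. All 8 groups carried MycER. Cells received an siRNA pool against RAD21, a cohesin subunit (siRAD21), or an siRNA against Renilla luciferase (siCtrl), together with 400 nM OHT or ethanol, and were taken at 24 or 48 h. RNA was sequenced from 18 libraries. At 48 h the siCtrl group and the siCtrl OHT group had 3 each, and every other group had 2. The values are eRPKM, reads over exons scaled to gene length and library depth (an RPKM), so levels can be set side by side between genes. PCR duplicates had been removed, so the levels of abundant genes may be understated beside those of low genes.

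Collagens are secreted or membrane-bound proteins whose chains wind into a triple helix. Fibrillar collagens build the tensile fibrils of bone, skin and tendon, and type I, a trimer of COL1A1 and COL1A2 chains, is the main protein of bone matrix. Type IV chains form the network of basement membranes, type VI chains form beaded microfilaments, FACIT collagens sit on the surface of fibrils, and transmembrane collagens such as types XIII and XVII anchor cells to their matrix. Cohesin holds sister chromatids together and shapes chromatin loops, and Myc is a transcription factor that binds the E-box.

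Library depths ran from 9647501 to 12678599 reads, recovered from the values. RAD21 itself was at 89.0 to 96.9 eRPKM in the 3 siCtrl libraries at 48 h and at 11.2 and 11.3 in the siRAD21 libraries (log2 fold change -2.99 ± 0.05 SE, limma, adjusted p = 2.84e-14). MYC, the gene fused in MycER, was at 49.9 to 54.6 and at 57.5 and 56.4 eRPKM in the same libraries. These values may hold reads of both the cells' own MYC and the transgene, which cannot be told apart here. The paper reports lower Myc mRNA and protein with RAD21 silencing. Of the mesenchymal and bone markers VIM was at 105 to 129 eRPKM, SPARC at 60.6 to 86.4 and FN1 at 16.4 to 49.8 over the libraries. RUNX2 was at 1.90 to 8.50 and ALPL at 1.21 to 3.85, while SP7, a factor of the osteoblast lineage, did not pass 0.487. Blood and endothelial markers were at or near 0: PTPRC, CD3E, CD14, PECAM1 and VWF did not pass 0.767 and CDH5 reached 1.12. Replicate pairs were set against sampling noise by a chi-square per gene. It was 1.06 for siRAD21 at 24 h, close to that noise, and 1.655 to 4.265 in most pairs. The replicate libraries of siRAD21 OHT cells at 48 h differed by less than the sampling noise (chi-square of 0.980 per gene over 11720 genes) and may be 1 library deposited as 2. The fit keeps both and estimates 1 spread per gene over all groups. The p-values of all comparisons may thus be too small, above all those with this group. With the values of these 2 libraries averaged the counts of called collagens were the same, except 4 in place of 5 for the interaction at 48 h. The replicates numbered 1 of the siCtrl and the siCtrl OHT group at 48 h stood apart from replicates 2 and 3 for several collagens, and values without them are given for the members most affected. The paper describes 2 biological replicates for RNA-seq, while siCtrl and siCtrl OHT at 48 h have 3 libraries each. Labels number the libraries without naming cultures, so p-values measure the spread between these libraries.

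The collagen RNA of these cells came from a small group of genes. Mean levels over the 18 libraries were highest for COL4A2 (43.2 eRPKM), COL12A1 (38.5), COL4A1 (38.4), COL1A1 (36.1), COL6A2 (33.1), COL6A1 (25.6), COL16A1 (23.0), COL3A1 (22.8), COL6A3 (18.1) and COL5A2 (16.0). COL13A1 followed at 10.1, COL5A1 at 9.40, COL8A1 at 8.60, COL11A1 at 8.35, COL27A1 at 8.23 and COL9A2 at 7.97. A further 9 genes had means between 1 and 5, and 19 lay below 1 eRPKM. The 25 genes with a mean of at least 1 were tested: 7 of the 11 fibrillar, 4 of the 8 basement membrane and 14 of the 25 other collagens. COL1A2, the partner chain of COL1A1 in type I collagen, was at 0.044 eRPKM with 0 to 6 reads a library, against 830 to 4257 reads for COL1A1.

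Other chains of the same type also differed in level. COL9A2 was at 7.97 eRPKM, and its type IX partners COL9A3 and COL9A1 were at 0.447 and 0.016. COL11A1 was at 8.35 and COL11A2 at 0.250, and COL8A1 was at 8.60 and COL8A2 at 0.821. The type VI chains lay closer, with a COL6A1 to COL6A2 ratio of 0.525 to 0.959 and a COL6A2 to COL6A3 ratio of 1.44 to 2.68 over the libraries. The type V ratio COL5A1 to COL5A2 ran from 0.223 to 1.04.

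Summed over all 44 genes, collagen levels at 48 h were 471, 367 and 400 eRPKM in siCtrl replicates 1 to 3, 558 and 534 in siRAD21 cells, 349, 273 and 277 in siCtrl OHT cells and 304 and 311 in siRAD21 OHT cells. The siRAD21 libraries lay above every siCtrl library, and both OHT groups below every siCtrl library at that time. Fibrillar collagens made up 28.0 to 31.9% of this sum in siCtrl, 30.1 and 31.0% in siRAD21, 20.9 to 25.8% in siCtrl OHT and 22.2 and 22.3% in siRAD21 OHT cells. Basement membrane collagens made up 23.2 to 24.4% in siCtrl and 20.3 and 21.5% in siRAD21 cells. With OHT they made up 25.6 to 27.4% in siCtrl and 23.3 and 23.1% in siRAD21 cells. The other collagens made up 44.9 to 47.7% in siCtrl and 48.7 and 48.3% in siRAD21 cells. With OHT their share was 48.7 to 52.1% in siCtrl and 54.5 and 54.6% in siRAD21 cells. These sums are descriptions, and no test was run on them. In whole cultures, fewer cells of a type and less RNA per cell cannot be told apart.

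At 48 h of RAD21 silencing, collagens were called mostly upwards. A gene was called with an adjusted p below 0.05 (limma on log2(eRPKM + 0.5), Benjamini-Hochberg over the 14993 genes tested) and a log2 fold change past 0.5. Of the 25 tested, 9 rose (COL17A1, COL13A1, COL5A3, COL5A1, COL6A1, COL12A1, COL27A1, COL8A1 and COL18A1) and 1 fell (COL9A2). Over all genes tested 23.7% were called, with 12.6% higher and 11.2% lower. The median log2 fold change was 0.42 for the collagens, with 21 of 25 above 0, and -0.01 over all genes. By class the median was 0.58 for 7 fibrillar collagens (3 rose), 0.34 for 4 basement membrane collagens (1 rose) and 0.38 for 14 others (5 rose, 1 fell). The calls of COL6A1, COL5A1, COL18A1 and COL8A1 were each lost under more than 1 choice of a single library left out, as given below. COL12A1, COL27A1, COL18A1 and COL8A1 were no longer called once a trend on GC content and length was removed, which left 6 calls.

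With OHT in siCtrl cells at 48 h the calls ran the other way. Of the 25 collagens 9 fell (COL11A1, COL9A2, COL5A1, COL4A5, COL22A1, COL5A2, COL6A3, COL1A1 and COL20A1) and 2 rose (COL17A1 and COL13A1), beside 17.9% of all genes called, 7.78% upwards and 10.1% downwards. The median was -0.32 for the collagens and -0.01 over all genes. It was -0.91 for fibrillar (4 fell), -0.28 for basement membrane (1 fell) and -0.33 for other collagens (4 fell, 2 rose). The fibrillar median is the value of COL1A1, which was -0.60 without siCtrl replicate 1.

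In RAD21-depleted cells at 48 h, OHT was accompanied by lower levels of 15 of the 25 collagens and no call upwards, where 28.6% of all genes were called, 12.4% higher and 16.2% lower. The median was -0.72 for the collagens and -0.02 over all genes. All 4 basement membrane collagens tested fell, with a median of -0.69. The fibrillar median was -1.44 (5 of 7 fell) and that of the others -0.34 (6 of 14 fell). No call of this comparison was lost when any 1 library was left out, and 15 were called with the near-identical siRAD21 OHT libraries averaged, though COL4A1, COL4A2 and COL18A1 were lost once the trend on GC content and length was removed. These comparisons share groups: siCtrl libraries enter the first pair and siRAD21 libraries the first and the last, so the values are set side by side and are not independent.

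**Figure D1:**
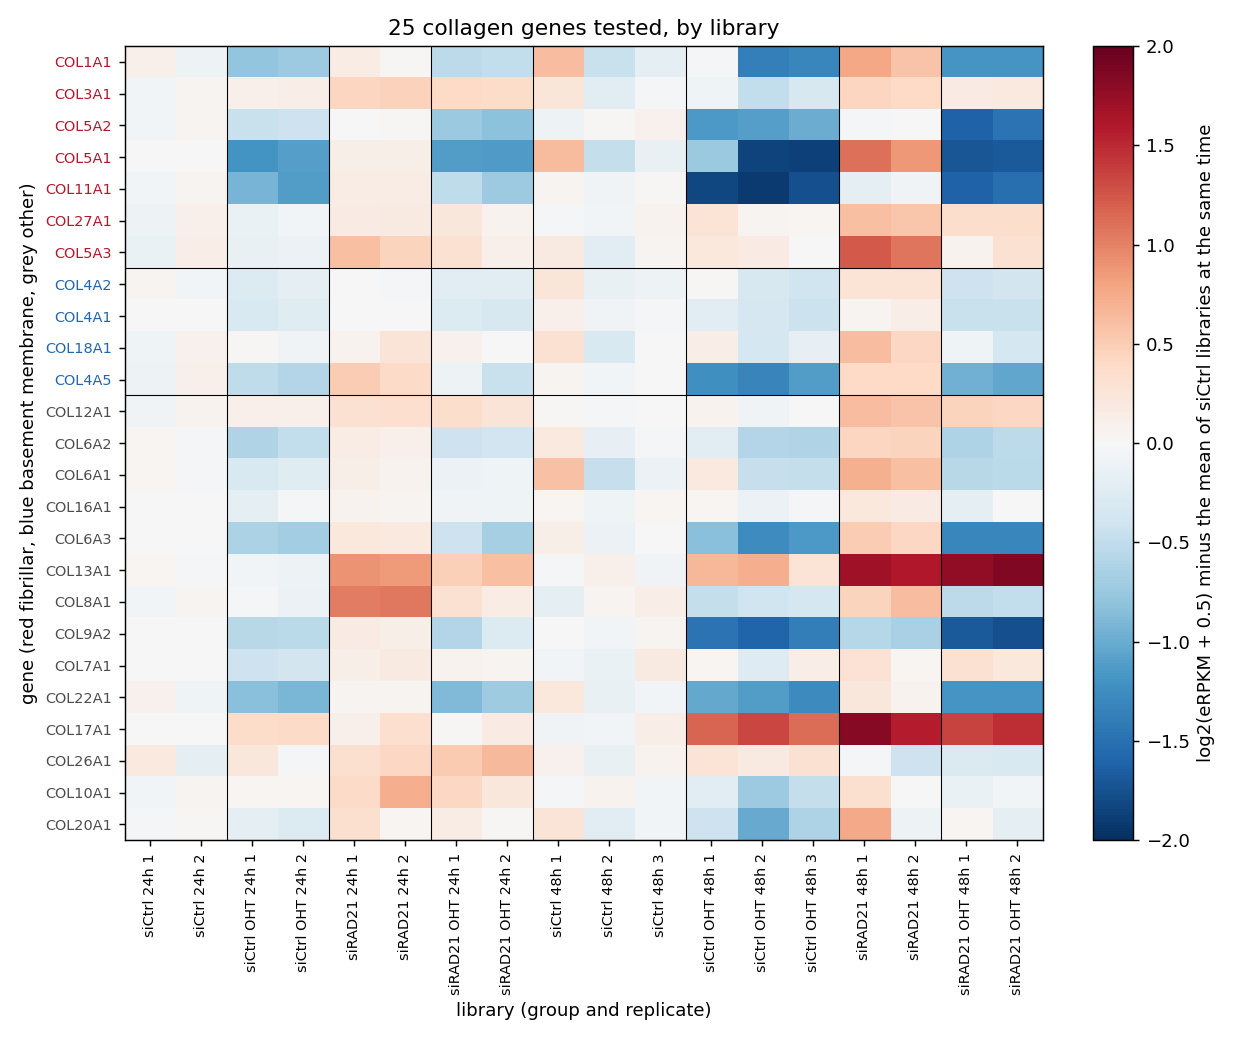
Level of the 25 tested collagens (rows, ordered by class and mean level) in each of the 18 libraries (columns), as log2(eRPKM + 0.5) minus the mean of the siCtrl libraries of the same time. OHT libraries at 48 h are lower for COL5A1, COL5A2, COL11A1, COL6A3 and COL9A2, siRAD21 libraries are higher for COL13A1 and COL17A1, and replicates 1 of siCtrl and siCtrl OHT at 48 h sit above their replicates for COL1A1, COL5A1 and COL6A1.

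**Figure D2:**
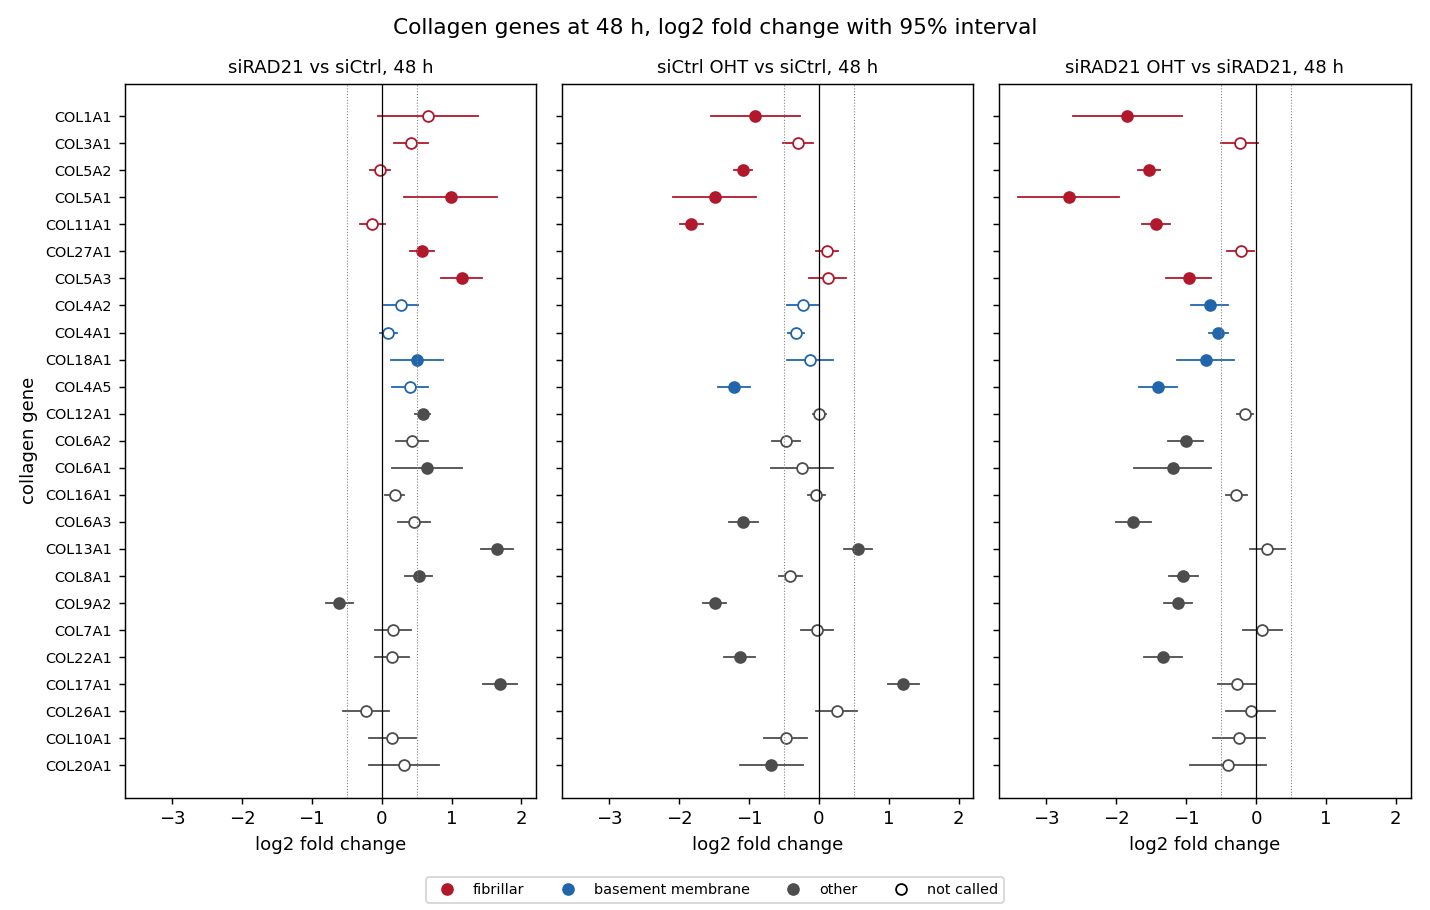
Log2 fold change (points) with its 95% interval (lines) for the 25 tested collagens in the 3 comparisons at 48 h, coloured by class, with filled points for genes called and dotted lines at -0.5 and 0.5. With siRAD21, 21 of 25 points lie above 0, and with OHT in siRAD21 cells 23 of 25 lie below 0.

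Among the fibrillar collagens COL1A1, the main chain of bone collagen (GRCh37 chr17:48261462-48278993), was the most abundant. Its eRPKM at 48 h was 59.1, 28.1 and 34.1 in siCtrl, 37.4, 14.5 and 15.2 in siCtrl OHT, 65.8 and 57.1 in siRAD21 and 16.7 in both siRAD21 OHT libraries. At 24 h it was 48.9 and 42.2 in siCtrl, 26.0 and 27.4 in siCtrl OHT, 50.4 and 46.4 in siRAD21 and 31.4 and 32.3 in siRAD21 OHT cells. Replicates 1 of siCtrl and siCtrl OHT at 48 h were above replicates 2 and 3, and these groups overlapped, while within each replicate number the OHT library was the lower. The log2 fold change at 48 h with OHT was -0.91 ± 0.30 (SE) in siCtrl cells (limma, adjusted p = 0.0188) and -1.84 ± 0.36 in siRAD21 cells (adjusted p = 5.77e-04). In siCtrl cells it was -0.60 (adjusted p = 0.0997) without siCtrl replicate 1, -0.67 (adjusted p = 0.0931) without siCtrl OHT replicate 2, -0.71 (adjusted p = 0.0849) without siCtrl OHT replicate 3 and -1.03 (adjusted p = 3.9e-06) without replicates 1 of both groups. With siRAD21 the difference at 48 h was 0.67 ± 0.33 and did not pass the test (adjusted p = 0.1). It passed without siCtrl replicate 1 (0.97, adjusted p = 0.0171), without siCtrl OHT replicate 1 (0.67, adjusted p = 0.0148), and with voom on the recovered reads (0.68, adjusted p = 0.0128). Without replicates 1 of siCtrl and siCtrl OHT at 48 h, COL1A1 was also called for the interaction at 48 h (-0.81), the effect of siRAD21 at 48 minus 24 h (0.88), siCtrl at 48 against 24 h (-0.55), siRAD21 OHT against siRAD21 at 24 h (-0.60), siRAD21 OHT against siCtrl at 24 h (-0.51) and OHT in siCtrl cells at 24 h (-0.76).

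COL5A1, a type V chain that sets fibril diameter, had the same uneven replicates. At 48 h it was at 17.7, 7.88 and 10.0 eRPKM in siCtrl, 6.51, 2.74 and 2.69 in siCtrl OHT, 24.7 and 20.8 in siRAD21 and 3.07 and 3.15 in siRAD21 OHT cells. At 24 h the values were 11.9 and 11.8 in siCtrl, 4.92 and 5.26 in siCtrl OHT, 12.9 and 12.8 in siRAD21 and 5.18 and 5.14 in siRAD21 OHT cells. Every OHT library lay below every library without OHT at either time. OHT was accompanied by a fall of 1.49 ± 0.28 on the log2 scale in siCtrl cells (limma, adjusted p = 4.22e-04) and of 2.68 ± 0.34 in siRAD21 cells (adjusted p = 1.18e-05), the largest fall of a tested collagen in any comparison between groups. With siRAD21 at 48 h it rose by 0.99 ± 0.31 (limma, adjusted p = 0.0138), a call lost without siCtrl replicate 2 (0.75, adjusted p = 0.0584) or without siRAD21 replicate 1 (0.86, adjusted p = 0.0969). Without replicates 1 of siCtrl and siCtrl OHT the rise was 1.30 (adjusted p = 5.6e-07).

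COL5A2, its partner chain, was at 22.6, 24.9 and 25.9 eRPKM in siCtrl, 10.7, 11.1 and 12.1 in siCtrl OHT, 23.7 and 24.5 in siRAD21 and 7.64 and 8.44 in siRAD21 OHT cells at 48 h. At 24 h it was at 16.8 and 18.3 in siCtrl, 12.7 and 13.1 in siCtrl OHT, 17.6 and 17.8 in siRAD21 and 10.2 and 9.73 in siRAD21 OHT cells. The replicates lay close together, and siCtrl and siRAD21 libraries overlapped at 48 h (log2 fold change -0.02, 95% interval -0.16 to 0.12). It fell with OHT by 1.08 ± 0.06 in siCtrl (limma, adjusted p = 6.69e-09) and by 1.53 ± 0.07 in siRAD21 cells (adjusted p = 1.76e-09).

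COL5A3, the remaining type V chain, was at 2.49, 1.75 and 2.24 eRPKM in siCtrl, 2.56, 2.45 and 2.15 in siCtrl OHT, 5.67 and 5.05 in siRAD21 and 2.26 and 2.75 in siRAD21 OHT cells at 48 h. At 24 h it was at 2.09 and 2.63 in siCtrl, 2.07 and 2.12 in siCtrl OHT, 3.81 and 3.38 in siRAD21 and 3.02 and 2.56 in siRAD21 OHT cells. The siRAD21 libraries were the highest at each time. The rise at 48 h was 1.15 ± 0.14 (limma, adjusted p = 6.9e-06), and with OHT the level in siRAD21 cells fell by 0.96 ± 0.15 (adjusted p = 7.97e-05). Exons of COL5A3 share 270 bases with those of a lncRNA on the other strand, and the library kit did not keep strand.

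COL11A1, a type XI chain of cartilage that also occurs in fibrils of other tissues, had the largest change of a tested collagen with OHT in siCtrl cells at 48 h. It was at 16.3, 14.9 and 15.9 eRPKM in siCtrl, 4.07, 3.81 and 4.30 in siCtrl OHT, 13.7 and 14.9 in siRAD21 and 4.76 and 5.16 in siRAD21 OHT cells. At 24 h the values were 7.87 and 8.53, 4.05 and 3.49, 9.10 and 9.17, and 5.61 and 4.73 eRPKM in the same order of groups. All OHT libraries lay below all libraries without OHT at the same time, with a fall at 48 h of 1.83 ± 0.08 in siCtrl (limma, adjusted p = 6.26e-10) and of 1.44 ± 0.09 in siRAD21 cells (adjusted p = 2.46e-08). With siRAD21 the difference was -0.13 (95% interval -0.32 to 0.05). COL11A1 also rose with time in siCtrl cells, by 0.90 ± 0.09 from 24 to 48 h (limma, adjusted p = 3.32e-06).

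COL3A1 and COL27A1 kept their levels within a narrower band. COL3A1, the type III chain of elastic tissues, was at 23.5, 16.9 and 19.6 eRPKM in siCtrl, 18.5, 13.95 and 15.8 in siCtrl OHT, 26.9 and 26.3 in siRAD21 and 22.4 and 22.8 in siRAD21 OHT cells at 48 h. Levels at 24 h were 20.6 and 22.2, 23.0 and 23.5, 28.9 and 29.5, and 28.4 and 27.7 eRPKM in the same order. It was called in none of these comparisons at 48 h, with 0.42 ± 0.11 for siRAD21, under the threshold of 0.5 (limma, adjusted p = 0.00574), and 0.54 (adjusted p = 4.28e-04), past it, without siCtrl replicate 1. COL3A1 lies next to COL5A2 on chromosome 2, and the ratio of their levels ran from 0.680 to 2.93 over the libraries. COL27A1 was at 7.38, 7.19 and 7.87 eRPKM in siCtrl, 9.09, 7.77 and 7.72 in siCtrl OHT, 11.5 and 11.3 in siRAD21 and 9.71 and 9.73 in siRAD21 OHT cells at 48 h. After 24 h it was at 6.52 and 7.56, 6.36 and 6.76, 7.93 and 8.03, and 8.29 and 7.39 eRPKM. It rose with siRAD21 at 48 h by 0.58 ± 0.08 (limma, adjusted p = 3.38e-05).

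**Figure D3:**
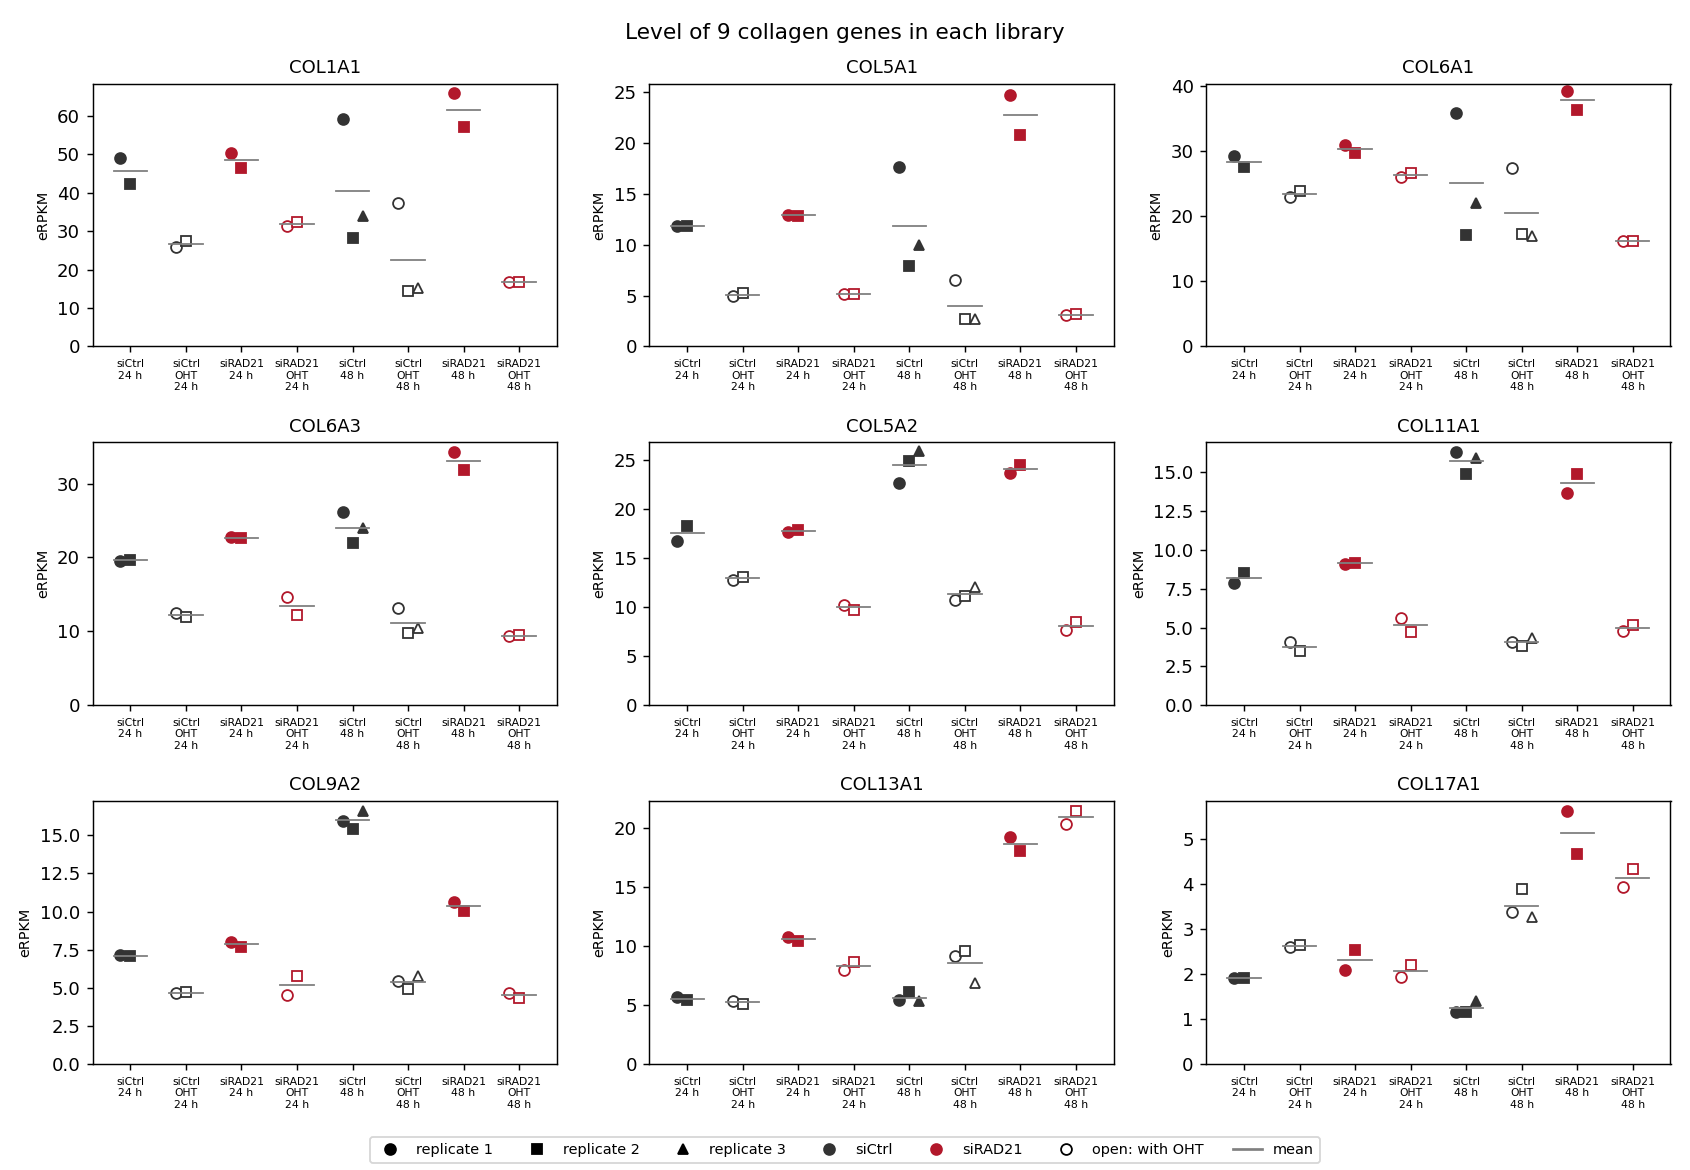
Level in eRPKM (vertical axes, from 0) of 9 collagens in every library by group, with a symbol for each replicate number, open symbols for OHT, red for siRAD21 and a grey line at the mean. Replicates 1 of siCtrl and siCtrl OHT at 48 h lie above replicates 2 and 3 for COL1A1, COL5A1 and COL6A1 and not for COL5A2 and COL9A2.

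The basement membrane collagens were led by COL4A1 and COL4A2, which form the ubiquitous type IV trimer and lie head to head on chromosome 13 with starts 127 bases apart. COL4A1 was at 47.2, 42.1 and 43.1 eRPKM in siCtrl, 38.0, 34.8 and 32.8 in siCtrl OHT, 46.0 and 48.4 in siRAD21 and 32.1 and 32.3 in siRAD21 OHT cells at 48 h. COL4A2 was at 54.2, 41.1 and 42.4, then 46.1, 36.3 and 34.6, then 55.0 and 55.4, and 34.1 and 35.3 eRPKM in the same order. Both moved together: the COL4A1 to COL4A2 ratio stayed between 0.824 and 1.03 in all 18 libraries. At 24 h COL4A1 was at 40.8 and 40.3 in siCtrl, 32.8 and 34.2 in siCtrl OHT, 40.5 and 40.2 in siRAD21 and 33.6 and 32.5 in siRAD21 OHT cells. COL4A2 was at 48.3 and 44.5, 38.5 and 40.8, 46.3 and 45.4, and 39.7 and 39.5 eRPKM at that time. In RAD21-depleted cells at 48 h OHT was accompanied by a fall of 0.54 ± 0.06 for COL4A1 (limma, adjusted p = 5.62e-06) and of 0.66 ± 0.12 for COL4A2 (adjusted p = 4.05e-04). In siCtrl cells the differences were -0.32 ± 0.05 (adjusted p = 1.14e-04) and -0.23 ± 0.10 (adjusted p = 0.0675), and neither was called.

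The type IV genes come as 3 such head-to-head pairs, and the shared start did not go with a shared level in the others. COL4A3 and COL4A4, chains of the kidney and lung basement membrane with starts 419 bases apart, were at 0.155 and 0.880 eRPKM on average, and their ratio ran from 0.060 to 0.730. COL4A5 and COL4A6, with starts 380 bases apart on the X chromosome, were at 2.14 and 0.243 eRPKM, with a COL4A5 to COL4A6 ratio of 3.16 to 15.6. COL4A5 was at 3.17, 2.88 and 3.01 eRPKM in siCtrl, 1.01, 0.913 and 1.13 in siCtrl OHT, both 4.15 in siRAD21 and 1.31 and 1.21 in siRAD21 OHT cells at 48 h. It fell with OHT by 1.22 ± 0.11 in siCtrl (limma, adjusted p = 4.24e-07) and by 1.404 ± 0.13 in siRAD21 cells (adjusted p = 6.19e-07). COL4A6 had 10 to 46 reads a library and COL4A3 had 6 to 24.

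COL4A4 did not reach the mean of 1 eRPKM, yet it was far from even. It was at 0.884 and 0.999 eRPKM in siCtrl, 0.275 and 0.337 in siCtrl OHT, 2.23 and 2.18 in siRAD21 and 0.624 and 0.568 in siRAD21 OHT cells at 24 h. At 48 h it was at 0.536, 0.406 and 0.663, then 0.264, 0.200 and 0.235, then 2.63 and 2.24, and 0.270 and 0.295 eRPKM in the same order, from 20 to 297 reads. The siRAD21 libraries were the highest and the OHT libraries the lowest at each time. In the fit over the 22040 genes above 0, COL4A4 rose with siRAD21 by 0.91 ± 0.12 at 24 h (limma, adjusted p = 1.81e-04) and by 1.51 ± 0.11 at 48 h (adjusted p = 2e-07), and with OHT in siRAD21 cells it fell by 1.90 ± 0.12 at 48 h (adjusted p = 7.39e-08). COL4A3, across the shared start, was at 0.157 to 0.235 eRPKM in the 4 siRAD21 libraries and at 0.076 to 0.201 in the other 14.

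**Figure D4:**
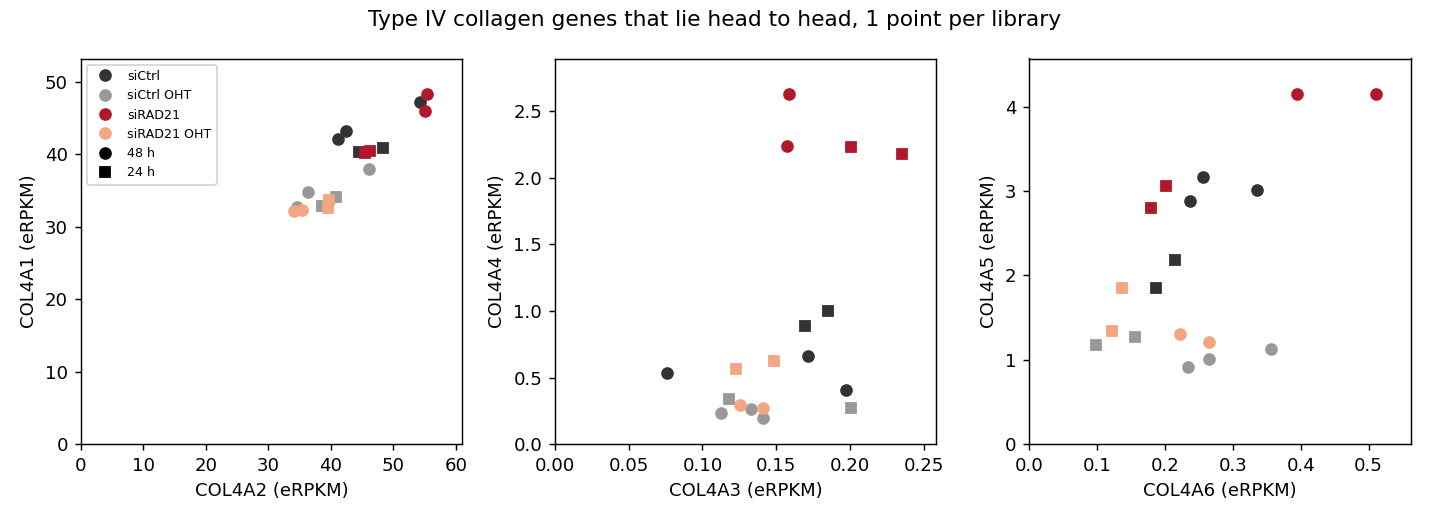
Levels in eRPKM of the type IV genes that lie head to head, with 1 point per library (circles 48 h, squares 24 h, coloured by group). COL4A1 and COL4A2 lie along a line with ratios of 0.824 to 1.03, while COL4A4 separates the siRAD21 libraries, the lowest at 2.18 eRPKM, and COL4A3 does not.

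The promoters of COL4A1 and COL4A4 are shown because their genes share a layout and differ in these data. Both are RefSeq windows on GRCh38.p14, from 250 bases before to 50 after the start, on the minus strand, at chr13:110307108-110307407 and chr2:227164156-227164455. Capitals mark 4 motifs, searched on either strand: the GC box with the letters GGGCGG, the box named CCAAT, the E-box of Myc with the letters CACGTG, and the TATA box with the letters TATAAA.
COL4A1: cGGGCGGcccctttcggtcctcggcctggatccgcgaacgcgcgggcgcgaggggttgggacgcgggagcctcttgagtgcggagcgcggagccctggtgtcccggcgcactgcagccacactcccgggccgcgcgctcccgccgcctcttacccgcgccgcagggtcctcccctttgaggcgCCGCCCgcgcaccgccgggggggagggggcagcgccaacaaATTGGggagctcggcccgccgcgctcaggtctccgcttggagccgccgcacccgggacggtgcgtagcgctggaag
COL4A4: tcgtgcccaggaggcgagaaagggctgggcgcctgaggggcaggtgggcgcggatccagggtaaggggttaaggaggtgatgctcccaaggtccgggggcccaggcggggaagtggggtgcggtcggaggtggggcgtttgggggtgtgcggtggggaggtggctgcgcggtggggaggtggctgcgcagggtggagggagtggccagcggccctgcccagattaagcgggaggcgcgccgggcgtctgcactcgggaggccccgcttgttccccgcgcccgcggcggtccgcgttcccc
The COL4A1 window holds 2 GC boxes and 1 CCAAT box, and the COL4A4 window holds none of the 4 motifs. The COL4A3 window on the plus strand, at chr2:227164374-227164673, overlaps that of COL4A4 and holds 2 GC boxes.

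COL18A1, whose C-terminal fragment is endostatin, was at 2.08 to 4.54 eRPKM over the libraries. Its rise with siRAD21 at 48 h was 0.51 ± 0.17 (limma, adjusted p = 0.0207), next to the threshold, and was lost without siCtrl replicate 2 (0.36, adjusted p = 0.0858), without siRAD21 replicate 1 (0.41, adjusted p = 0.153) and with the replicate block (0.50, adjusted p = 0.00416). In siRAD21 cells it fell with OHT by 0.72 ± 0.19 (limma, adjusted p = 0.0045). Exons of COL18A1 and of SLC19A1 on the other strand share 1563 bases, 18.5% of the COL18A1 exons, and reads from these cannot be told apart. COL15A1, the other multiplexin, was at 0.151 to 0.402 eRPKM.

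Type VI collagen was represented by 3 chains at similar levels. COL6A1 was at 35.9, 17.2 and 22.1 eRPKM in siCtrl, 27.4, 17.2 and 17.0 in siCtrl OHT, 39.2 and 36.4 in siRAD21 and both 16.2 in siRAD21 OHT cells at 48 h. COL6A2, its neighbour on chromosome 21, was at 41.8, 32.7 and 35.8, then 31.3, 24.1 and 24.0, then 49.6 and 49.8, and 23.7 and 25.3 eRPKM in the same order. Replicates 1 of siCtrl and siCtrl OHT were again the highest of their groups for both. At 24 h COL6A1 was at 29.2 and 27.5 in siCtrl, 22.9 and 23.8 in siCtrl OHT, 30.9 and 29.6 in siRAD21 and 26.1 and 26.6 in siRAD21 OHT cells. COL6A2 was at 37.6 and 35.5, 23.9 and 25.7, 40.5 and 39.4, and 27.4 and 28.0 eRPKM at that time. The rise of COL6A1 with siRAD21 at 48 h was 0.65 ± 0.23 (limma, adjusted p = 0.0269). It was lost without siCtrl replicate 2 (0.42, adjusted p = 0.112) or 3 (0.59, adjusted p = 0.0706) and without siRAD21 replicate 1 (0.60, adjusted p = 0.127) or 2 (0.70, adjusted p = 0.0704), and it was 0.94 (adjusted p = 2.22e-06) without replicates 1 of siCtrl and siCtrl OHT. COL6A2 differed by 0.44 ± 0.11 (limma, adjusted p = 0.00278), under the threshold of 0.5, and by 0.53 (adjusted p = 5.64e-04) without siCtrl replicate 1. With OHT in siCtrl cells the COL6A2 difference was -0.47 ± 0.09 (adjusted p = 8e-04), and it passed the threshold without siCtrl replicate 2 (-0.55, adjusted p = 4.31e-04) or siCtrl OHT replicate 1 (-0.60, adjusted p = 2.9e-05).

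COL6A3, the longest of these type VI chains, fell most with OHT among them. It was at 26.1, 21.9 and 23.9 eRPKM in siCtrl, 13.2, 9.75 and 10.5 in siCtrl OHT, 34.3 and 31.9 in siRAD21 and 9.43 and 9.44 in siRAD21 OHT cells at 48 h. The values of the 24 h libraries were 19.6 and 19.7 in siCtrl, 12.5 and 12.0 in siCtrl OHT, 22.8 and 22.6 in siRAD21 and 14.6 and 12.2 in siRAD21 OHT cells. No OHT library reached a library without OHT. The fall with OHT at 48 h was 1.08 ± 0.09 in siCtrl (limma, adjusted p = 4.77e-07) and 1.76 ± 0.12 in siRAD21 cells (adjusted p = 2.81e-08). In siRAD21 cells COL6A1 fell by 1.20 ± 0.25 (adjusted p = 0.00103) and COL6A2 by 1.01 ± 0.12 (limma, adjusted p = 5.16e-06). With siRAD21 alone COL6A3 differed by 0.46 ± 0.11 (limma, adjusted p = 0.00202), which passed the threshold without siCtrl replicate 1 (0.52, adjusted p = 0.00154) or siRAD21 replicate 2 (0.51, adjusted p = 0.00777).

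Among the FACIT collagens COL9A2 was the tested collagen that fell with siRAD21. It was at 15.9, 15.4 and 16.6 eRPKM in siCtrl, 5.44, 4.91 and 5.80 in siCtrl OHT, 10.6 and 10.1 in siRAD21 and 4.65 and 4.35 in siRAD21 OHT cells at 48 h. The 24 h levels were 7.14 and 7.06, 4.65 and 4.72, 8.02 and 7.71, and 4.55 and 5.76 eRPKM in the same order. Replicates lay close together, and the 4 groups did not overlap at 48 h. The fall at 48 h was 0.60 ± 0.09 with siRAD21 (limma, adjusted p = 4.08e-05), 1.49 ± 0.08 with OHT in siCtrl (adjusted p = 4.15e-09) and 1.12 ± 0.10 with OHT in siRAD21 cells (adjusted p = 2.94e-07). In siCtrl cells it rose from 24 to 48 h by 1.12 ± 0.09 (limma, adjusted p = 5.78e-07), so the siRAD21 level at 48 h was above siCtrl at 24 h and below siCtrl at 48 h.

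COL12A1 and COL16A1, FACIT collagens of fibril surfaces, were abundant and moved little with OHT. COL12A1 was at 34.8, 33.4 and 34.4 eRPKM in siCtrl, 36.0, 32.7 and 34.4 in siCtrl OHT, 52.5 and 50.8 in siRAD21 and 46.5 and 45.8 in siRAD21 OHT cells at 48 h. In the 24 h libraries it was at 30.4 and 33.4, 34.4 and 34.3, 39.4 and 40.3, and 40.8 and 38.4 eRPKM. It rose with siRAD21 at 48 h by 0.59 ± 0.05 (limma, adjusted p = 1.76e-07), and with OHT the difference was 0.01 in siCtrl cells (95% interval -0.09 to 0.10). COL16A1 was at 25.5, 23.3 and 25.4 eRPKM in siCtrl, 25.3, 22.9 and 24.1 in siCtrl OHT, 28.6 and 27.8 in siRAD21 and 21.8 and 24.5 in siRAD21 OHT cells at 48 h. At 24 h its values were 21.2 and 21.1, 18.5 and 20.7, 22.1 and 21.9, and 20.1 and 19.9 eRPKM, and it was called in no comparison. COL22A1, a FACIT of tissue junctions, was at 6.74, 5.15 and 5.55 eRPKM in siCtrl, 2.58, 2.40 and 2.11 in siCtrl OHT, 6.84 and 6.12 in siRAD21 and 2.27 and 2.28 in siRAD21 OHT cells at 48 h. Its 24 h values were 3.57 and 3.13, 1.65 and 1.54, 3.49 and 3.50, and 1.59 and 1.85 eRPKM. COL22A1 fell with OHT by 1.14 ± 0.10 in siCtrl (limma, adjusted p = 6.46e-07) and by 1.33 ± 0.13 in siRAD21 cells (adjusted p = 8.12e-07).

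The network collagen COL8A1, a short chain of vessel walls and the cornea, was higher with siRAD21 at 24 than at 48 h. It was at 7.79 and 8.40 eRPKM in siCtrl, 7.92 and 7.42 in siCtrl OHT, 16.9 and 17.4 in siRAD21 and 10.1 and 8.99 in siRAD21 OHT cells at 24 h. At 48 h it was at 6.43, 7.60 and 8.04, then 5.15, 5.44 and 5.64, then 10.2 and 11.5, and 4.92 and 5.05 eRPKM. The rise was 1.04 ± 0.10 at 24 h (limma, adjusted p = 4.53e-06) and 0.53 ± 0.09 at 48 h (adjusted p = 1.5e-04), the latter lost without siCtrl replicate 1 (0.44, adjusted p = 4.01e-04) or siRAD21 replicate 2 (0.45, adjusted p = 0.00471). With OHT in siRAD21 cells it fell by 0.81 ± 0.10 at 24 h (limma, adjusted p = 2.83e-05) and by 1.04 ± 0.10 at 48 h (adjusted p = 6.77e-07). COL10A1, the type X chain of growth plate cartilage, was at 0.725 to 2.03 eRPKM.

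The members with the highest rises at 48 h were COL13A1 and COL17A1, which are transmembrane collagens, while COL23A1 and COL25A1 of the same kind were at 0.0540 and 0.132 eRPKM on average and were not called. COL13A1, found at cell-matrix and neuromuscular junctions, was at 5.42, 6.07 and 5.34 eRPKM in siCtrl, 9.16, 9.62 and 6.90 in siCtrl OHT, 19.2 and 18.1 in siRAD21 and 20.4 and 21.5 in siRAD21 OHT cells at 48 h. Its 24 h eRPKM was 5.70 and 5.42, 5.35 and 5.12, 10.7 and 10.5, and 7.96 and 8.68 eRPKM in the same order. Every siRAD21 library, with or without OHT, was above every siCtrl library of the same time without OHT. The rise was 0.87 ± 0.12 at 24 h (limma, adjusted p = 8.38e-05) and 1.65 ± 0.11 at 48 h with siRAD21 (adjusted p = 1.64e-08) and 0.56 ± 0.09 at 48 h with OHT in siCtrl cells (adjusted p = 2.06e-04), which was 0.47 and no longer past the threshold without siCtrl OHT replicate 2, and 0.48 without replicates 1 of both groups. In siRAD21 cells at 48 h the difference with OHT was 0.16 (95% interval -0.09 to 0.41).

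COL17A1, a component of the hemidesmosomes of epithelial cells, was at 1.15, 1.17 and 1.397 eRPKM in siCtrl, 3.39, 3.90 and 3.27 in siCtrl OHT, 5.61 and 4.65 in siRAD21 and 3.93 and 4.34 in siRAD21 OHT cells at 48 h. Levels at 24 h were 1.91 and 1.90, 2.61 and 2.65, 2.09 and 2.54, and 1.94 and 2.20 eRPKM. The siCtrl libraries were the lowest at 48 h, and the 24 h groups lay close together. It rose at 48 h by 1.70 ± 0.11 with siRAD21 (limma, adjusted p = 2.75e-08) and by 1.21 ± 0.10 with OHT in siCtrl cells (adjusted p = 3.48e-07). The epithelial markers moved differently: of 4 tested, 2 fell with siRAD21 at 48 h (KRT14 from 12.4 to 0.574 and KRT5 from 1.76 to 0.828 eRPKM), and with OHT in siCtrl cells EPCAM rose from 4.65 to 11.5 while KRT14 and KRT5 fell. CDH1 was at 0.559 to 1.74 eRPKM and KRT20 did not pass 0.360. Their part in the COL17A1 values was not tested. COL7A1, the anchoring fibril collagen of skin, was at 3.66 to 5.75 eRPKM and was called in no comparison at 48 h.

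The promoters of COL11A1 and COL13A1 are given because these genes had, at 48 h, the largest fall with OHT in siCtrl cells and a rise with both siRAD21 and OHT. The windows are at chr1:103108473-103108772 on the minus and chr10:69801656-69801955 on the plus strand of GRCh38.p14, with the same marks.
COL11A1: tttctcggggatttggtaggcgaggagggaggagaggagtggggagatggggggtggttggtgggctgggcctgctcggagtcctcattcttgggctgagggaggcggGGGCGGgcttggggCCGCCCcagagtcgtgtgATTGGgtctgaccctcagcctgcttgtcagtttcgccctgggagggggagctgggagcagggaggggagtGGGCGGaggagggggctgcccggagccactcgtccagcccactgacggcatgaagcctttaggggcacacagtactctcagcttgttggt
COL13A1: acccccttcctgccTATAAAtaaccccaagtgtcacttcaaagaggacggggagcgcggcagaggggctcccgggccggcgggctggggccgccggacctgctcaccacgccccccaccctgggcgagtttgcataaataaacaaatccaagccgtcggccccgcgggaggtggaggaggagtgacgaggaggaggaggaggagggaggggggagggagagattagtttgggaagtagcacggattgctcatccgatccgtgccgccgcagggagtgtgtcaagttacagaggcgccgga
COL11A1 holds 3 GC boxes and 1 CCAAT box, and COL13A1 holds TATAAA and no GC box. RefSeq windows were found for 32 of the 44 genes, 44 windows in all. None of them held CACGTG, which 7.26% of 35116 promoter windows of the same length held. GGGCGG was in 54.5% of collagen and 45.0% of all windows, CCAAT in 31.8 and 34.6%, and TATAAA in 18.2 and 11.5%. Of the collagens with a window that fell with OHT at 48 h in siCtrl or siRAD21 cells, 8 of 10 genes had a GC box. Among the other tested collagens with a window it was 4 of 8 genes. COL1A1, COL5A2, COL6A1, COL8A1, COL20A1 and COL22A1 also fell and had no window, while only COL3A1 lacked one among the others. COL4A1, COL4A2 and COL18A1, each with a GC box, were called lower only in siRAD21 cells. Those calls were lost once a trend on GC content and length was removed. The contrast is thus incomplete and rests in part on calls that depend on GC content and length. These are descriptions of letters in a window, and a motif outside it was not searched.

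At 24 h fewer collagens had changed. With siRAD21 4 of 25 rose (COL8A1, COL13A1, COL10A1 and COL5A3) and none fell, beside 8.43% of all genes called, 5.83% higher and 2.6% lower. COL10A1 rose by 0.55 ± 0.17 (limma, adjusted p = 0.0302) and COL5A3 by 0.52 ± 0.15 (adjusted p = 0.0192). The call of COL10A1 was lost without siCtrl replicate 1 (0.50, adjusted p = 0.143) or 2 (0.61, adjusted p = 0.0639) or siRAD21 replicate 2 (0.39, adjusted p = 0.251). That of COL5A3 was lost without siCtrl replicate 1 (0.39, adjusted p = 0.167) or siRAD21 replicate 1 (0.45, adjusted p = 0.136). Voom on the recovered reads called 5 higher, with COL4A5 (0.53, adjusted p = 0.00163), and 0 lower.

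With OHT in siCtrl cells at 24 h 7 of 25 fell (COL5A1, COL11A1, COL22A1, COL6A3, COL9A2, COL6A2 and COL4A5) and none rose, where 8.78% of all genes were called, 3.68% higher and 5.1% lower. COL11A1 fell by 1.03 ± 0.09 (limma, adjusted p = 4.24e-06) and COL5A1 by 1.15 ± 0.34 (adjusted p = 0.0226). COL5A1 was lost whenever any of the 4 libraries compared was left out, with the fold change at -1.19 to -1.10. The calls of COL4A5 and COL6A2 were lost without siCtrl OHT replicate 2 (-0.51, adjusted p = 0.0502) and 1 (-0.50, adjusted p = 0.0308), and COL4A5 also without siCtrl replicate 2 (-0.45, adjusted p = 0.0635). COL1A1, at -0.76 ± 0.36, was not called (limma, adjusted p = 0.147), but was with a replicate block (adjusted p = 0.0475) and without siCtrl OHT 48 h replicate 1 (adjusted p = 0.0260).

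In siRAD21 cells at 24 h 9 of 25 fell with OHT (the former 7, COL5A2 and COL8A1) and none rose, beside 11.9% of all genes called, 4.29% higher and 7.62% lower. COL5A2 fell by 0.80 ± 0.07 (limma, adjusted p = 3.05e-06). COL5A1 was lost without siRAD21 replicate 1 or 2 or siRAD21 OHT replicate 2 (adjusted p = 0.0535 to 0.0545, fold change -1.25 to -1.24) and COL9A2 without siRAD21 OHT replicate 1 (-0.42, adjusted p = 0.00572). Against siCtrl cells, siRAD21 OHT cells had 2 collagens higher and 5 lower at 24 h (13.1% of all genes called, 6.62% higher and 6.51% lower) and 2 higher and 10 lower at 48 h (28% called, 13.1% higher and 14.9% lower). The 2 higher at 48 h were COL13A1, by 1.81 ± 0.11 (limma, adjusted p = 4.36e-09), and COL17A1, by 1.42 ± 0.11 (adjusted p = 1.11e-07). At 24 h COL5A1 lost its call without any 1 of the 4 libraries (-1.13 to -1.12), COL26A1 without siCtrl replicate 2 (0.39) or siRAD21 OHT replicate 2 (0.52), and COL13A1 (0.48) and COL6A3 (-0.41) without siRAD21 OHT replicate 2, which added COL9A2 (-0.59). At 48 h COL6A2 lost its call without siCtrl replicate 1 (-0.47) and COL8A1 without siCtrl replicate 2 (-0.49) or 3 (-0.45) or siRAD21 OHT replicate 1 (-0.50), while COL6A1 was added without siCtrl replicate 2 (-0.78) or siCtrl OHT replicate 1 (-0.55).

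Whether OHT acted unequally in siCtrl and siRAD21 cells was tested as an interaction. At 48 h the difference with OHT was lower in siRAD21 than in siCtrl cells for 5 of 25 collagens, COL17A1, COL5A3, COL6A3, COL8A1 and COL6A2, and higher for none, beside 7.3% of all genes called, 3.33% higher and 3.97% lower. COL17A1 had a difference of -1.49 ± 0.16 (limma, adjusted p = 6.28e-05), from 1.21 in siCtrl and -0.28 in siRAD21 cells. COL5A3 had -1.09 ± 0.19 (adjusted p = 0.00183), COL6A3 -0.68 ± 0.15 (adjusted p = 0.00724), COL8A1 -0.64 ± 0.13 (adjusted p = 0.00362) and COL6A2 -0.54 ± 0.15 (adjusted p = 0.0247). The call of COL6A2 was lost without siCtrl 48 h replicate 2, siCtrl OHT replicate 1, siRAD21 replicate 1 or 2, or siRAD21 OHT replicate 1 (-0.46, -0.41, -0.54, -0.53 and -0.49), and with the siRAD21 OHT libraries averaged (-0.53, adjusted p = 0.0739). Same-numbered siCtrl and siCtrl OHT libraries at 48 h deviated weakly together (r = 0.130 to 0.258). For siRAD21 and siRAD21 OHT libraries r was 0.026, and no label names pairs. As an alternative, limma with a replicate block over all groups called 8 collagens. It added COL5A1 (-1.20, adjusted p = 0.0201), COL6A1 (-0.95, adjusted p = 0.0214) and COL18A1 (-0.59, adjusted p = 0.0267). The share of all genes called with this block was not computed. Without siCtrl replicate 1 limma also called COL4A2 (-0.55), COL5A1 (-1.51), COL6A1 (-1.24) and COL18A1 (-0.75). Without siCtrl OHT replicate 3 it called COL4A2 (-0.51), COL5A1 (-1.39), COL6A1 (-1.06) and COL13A1 (-0.54), and without siRAD21 OHT replicate 2 COL5A2 (-0.51). At 24 h limma called 0 collagens and 0% of all genes for the interaction, 3 collagens had an unadjusted p under 0.05, and voom on the recovered reads called 1, COL8A1.

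The effect of siRAD21 at 48 h was compared with that at 24 h in the same way. It was higher at 48 h for 3 of 25 collagens and lower for 2, with 10.7% of all genes called, 3.85% higher and 6.86% lower. COL17A1 differed by 1.47 ± 0.17 (limma, adjusted p = 4.92e-05), COL13A1 by 0.78 ± 0.16 (adjusted p = 0.00303) and COL5A3 by 0.62 ± 0.20 (adjusted p = 0.0415). COL9A2 differed by -0.74 ± 0.13 (limma, adjusted p = 0.00105) and COL8A1 by -0.50 ± 0.13 (adjusted p = 0.0142). COL5A3 and COL8A1 lay next to the thresholds and lost their calls without any 1 of 10 and of 5 libraries (0.49 to 0.70 and -0.48 to -0.42), and with the replicate block (0.61, adjusted p = 0.0756, and -0.46, adjusted p = 0.0129). Without siCtrl 48 h replicate 1, COL5A1 (1.19, adjusted p = 0.0449) and COL6A1 (0.85, adjusted p = 0.0260) were called too, as were COL26A1 without siCtrl 24 h replicate 1 (-0.79) or siRAD21 48 h replicate 1 (-0.78) and COL27A1 without siCtrl 24 h replicate 1 (0.51).

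In siCtrl cells 5 of 25 collagens were higher at 48 than at 24 h and none lower, beside 12.4% of all genes called, 5.53% higher and 6.91% lower. After COL9A2 and COL11A1 these were COL22A1 (0.71 ± 0.12, limma, adjusted p = 2.53e-04), COL20A1 (0.63 ± 0.23, adjusted p = 0.0403) and COL10A1 (0.56 ± 0.16, adjusted p = 0.0112). COL20A1, with 23 to 143 reads, lost this call without any 1 of 6 libraries (0.50 to 0.66), and COL10A1 without siCtrl 24 h replicate 1 (0.50, adjusted p = 0.0793). Calls were added for COL5A2 without siCtrl 24 h replicate 2 (0.53) or 48 h replicate 1 (0.52), COL4A5 without 24 h replicate 2 (0.58) or 48 h replicate 2 (0.51), COL6A1 without 48 h replicate 1 (-0.53), COL17A1 without 48 h replicate 3 (-0.54) and COL26A1 without 24 h replicate 2 (-0.51). With OHT at 48 h COL20A1 fell by 0.68 ± 0.21 in siCtrl cells (limma, adjusted p = 0.0136), a call lost without siCtrl replicate 1 (-0.55, adjusted p = 0.0634) or siCtrl OHT replicate 2 (-0.52, adjusted p = 0.0694). COL20A1 was also called without siRAD21 48 h replicate 2, higher with siRAD21 (0.75) and lower with OHT in siRAD21 cells (-0.83), and COL10A1 was called lower with OHT in siCtrl cells without siCtrl replicate 3 (-0.50) or siCtrl OHT replicate 1 (-0.61).

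Of the collagens, 19 had a mean below 1 eRPKM. Beside COL4A4 and COL8A2 (0.536 to 1.22 eRPKM), they did not pass 0.765 eRPKM in any library. Those were COL9A3, COL24A1, COL15A1, COL11A2, COL6A6, COL4A6, COL2A1, COL19A1, COL4A3, COL25A1, COL21A1, COL14A1, COL28A1, COL23A1, COL1A2, COL6A5 and COL9A1. COL9A1, the lowest, had 0 to 3 reads. In the fit over all genes above 0, COL2A1, the main cartilage collagen with 4 to 26 reads a library, COL9A3 and COL14A1 fell with siRAD21 at 48 h (-0.57, -0.61 and -0.57), and COL19A1 rose with OHT in siRAD21 cells (0.69). At such counts these differences are between a few reads.

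Of 32 tested enzymes and chaperones of collagen biosynthesis, 1 rose and 1 fell with siRAD21 at 48 h, where 23.7% of all genes were called, 12.6% higher and 11.2% lower: LOX, which cross-links collagen, from 12.8 to 22.0 eRPKM (log2 fold change 0.76 ± 0.10, limma, adjusted p = 1.21e-05), and P3H3, of the prolyl 3-hydroxylase family, from 21.3 to 13.6 (-0.63 ± 0.07, adjusted p = 3.04e-06). The median was 0.06. Of 8 collagen receptors, OSCAR (0.93 ± 0.12) and ITGA1 (0.83 ± 0.13) rose and DDR2 fell (-0.68 ± 0.07). Of 9 genes of collagen degradation, a list that holds both proteases and TIMP inhibitors, 1 rose, the gelatinase MMP9, by 0.75 ± 0.11.

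With OHT in siCtrl cells at 48 h, 6 of the 32 biosynthesis genes fell and 2 rose, with a median of -0.14, beside 17.9% of all genes called, 7.78% higher and 10.1% lower. Lysyl oxidases led the falls: LOXL4 went from 59.3 to 27.7 eRPKM (-1.09 ± 0.05, limma, adjusted p = 1.73e-09) and LOXL1 from 31.4 to 16.0 (-0.95 ± 0.08, adjusted p = 3.54e-07). CREB3L1, a transcription factor of collagen secretion in bone, went from 2.81 to 1.13 (-1.04 ± 0.19, adjusted p = 4.52e-04). PCOLCE2, an enhancer of procollagen C-proteinase, rose by 0.61 ± 0.06 and TMEM38B, an endoplasmic reticulum cation channel, by 0.57 ± 0.08. Of 8 receptors 3 fell, MRC2 (-0.77 ± 0.12), OSCAR (-0.64 ± 0.11) and DDR1 (-0.61 ± 0.08). Of 9 degradation genes 5 fell, with a median of -0.54. Among them were the membrane collagenase MMP14 (45.2 to 21.6 eRPKM, -1.05 ± 0.07, limma, adjusted p = 5.03e-08), the protease inhibitor TIMP2 (-0.75 ± 0.09) and CTSK (-0.74 ± 0.20). Proteases and an inhibitor thus fell together, and collagen breakdown was not measured. Of 5 tested osteosarcoma and mesenchymal markers FN1 (-1.13 ± 0.08) and the bone lineage factor RUNX2 (-0.84 ± 0.12) fell too, and their part in the collagen values was not tested. In siRAD21 cells, OHT was accompanied by 6 falls and 2 rises among the biosynthesis genes, 3 and 1 among the receptors and 6 and 0 among the degradation genes, beside 28.6% of all genes called, 12.4% higher and 16.2% lower.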

How the data were processed

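The authors depleted ribosomal RNA, made unstranded TruSeq libraries, trimmed and masked bases of low quality, aligned 50-base reads to hg19 with TopHat2 2.0.8 and removed PCR duplicates. The submitters' processing notes also name featureCounts 1.4.5. They deposited 1 table of eRPKM (an RPKM over exons) for 18 libraries, mapped to groups by column name, and called DEGs with DESeq2. Duplicate removal keeps 1 read per start, and up to 35.9% of the read starts of COL1A1 were in use. Levels and fold changes of abundant genes may therefore be understated.

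Reads were recovered from the RPKM steps (tolerance 0.005) for 22022 genes, 43 of the 44 collagens. Positions came from GENCODE on GRCh37 (22419 symbols matched). limma 3.58.1 (R 4.3.3) was fitted to log2(eRPKM + 0.5) for the 14993 genes with a mean of at least 1, with 8 group means in 1 fit, a variance trend, no block and Benjamini-Hochberg adjustment per comparison. Fold changes on this scale understate those of low genes. On simulated data of 15004 genes 169 of 200 changed by 1 on the log2 scale were called for siRAD21 at 48 h, with 11 of the unchanged genes. The simulated libraries had the same dispersion for every gene, no outlying or near-identical replicates and no GC trend. Calls that depend on these features were therefore not checked by it. Same-numbered siCtrl and siCtrl OHT libraries at 48 h deviated weakly together (r = 0.258, 0.130 and 0.157). At 24 h those groups deviated in opposite directions (r = -0.134), and no label names pairs. Members, classes and lists were chosen with earlier results of these data known. Full values were given for collagens with a mean of at least 5, or called at 48 h and at 5 in a group. The others were given by range, with up to 3 rises and 3 falls of each list. Alternatives were other pseudocounts and filters, median centring, quantile normalization, only the groups compared, a replicate block, no trend, no fold change threshold, voom on the recovered reads, averaging the siRAD21 OHT 48 h libraries and leaving out each library. Chosen after seeing the data were removing a GC and length trend, crossed numbers, replicates 1 and 2 only, no siCtrl and siCtrl OHT 48 h replicates 1, a paired fit of those groups alone, and undoing duplicate removal. Figures were drawn with matplotlib 3.10.9, and tables were read with pandas 2.3.3 under Python 3.11.15.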

Additional observations from a re-analysis of the deposited data

Results flagged for a closer look

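The difference with OHT at 48 h was not the same in siCtrl and siRAD21 cells for 5 of 25 collagens, by limma's test of the siRNA by OHT interaction. Of all genes tested 7.3% were called. The change in siRAD21 cells minus that in siCtrl cells was -1.49 for COL17A1, -1.09 for COL5A3, -0.677 for COL6A3, -0.638 for COL8A1 and -0.535 for COL6A2 on the log2 scale. COL6A2 lost its call without any 1 of 5 libraries, and the fit with the replicate block called 8 collagens, with COL5A1, COL6A1 and COL18A1. The share of all genes called with that block was not computed.

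The difference with siRAD21 was not the same at 48 and 24 h for 5 of 25 collagens by the same kind of test, beside 10.7% of all genes called. On the log2 scale the later change exceeded the earlier by 1.47 for COL17A1, 0.776 for COL13A1, 0.625 for COL5A3, and it differed by -0.741 for COL9A2 and -0.505 for COL8A1. The calls of COL5A3 and COL8A1 were lost with the replicate block and without any 1 of 10 and of 5 libraries.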

How the results depend on the processing

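Over 300 fold changes and 10417 values under alternatives none of the called ones reversed, 137 lost their call and 147 gained one. Of 421 recounts of called collagens 390 stayed within 1.5 times the main count. The exceptions follow, and their causes were not tested unless the setting changes the genes or libraries used. For siRAD21 at 24 h (4 called) 2 were called with a pseudocount of 1, 2 with quantile normalization and 2 with a mean of at least 5 eRPKM, which tests fewer collagens, and 7 with no fold change threshold. For siRAD21 at 48 h (10) 6 were called after removing the GC and length trend. For OHT in siCtrl cells 7 were called at 48 h (11) with a mean of at least 5, and 11 at 24 h (7) with no threshold. For siRAD21 OHT against siCtrl at 24 h (7) 12 were called with no threshold. For the interaction at 48 h (5) 9 were called with quantile normalization and 8 without replicates 1 of siCtrl and siCtrl OHT, and at 24 h (0) 1 with voom and 1 without those replicates. For the effect of siRAD21 at 48 minus 24 h (5) 8 were called with all genes above 0, 3 with a mean of at least 5, 3 with replicates 1 and 2 only and 8 without replicates 1 of siCtrl and siCtrl OHT. For siCtrl at 48 against 24 h (5) 3 were called with a pseudocount of 1, 2 with a mean of at least 5 and 10 with no threshold.

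With the replicate block 8 collagens were called for the interaction at 48 h and 3 for the effect of siRAD21 at 48 minus 24 h, and 10 other counts stayed within 1.5 times. Crossing the numbers of siCtrl at 24 h in the block called 1 collagen for the interaction at 24 h and 8 at 48 h. Leaving out each library in turn, counts ran from 2 to 4 for siRAD21 at 24 h, 7 to 13 at 48 h, 5 to 8 for OHT in siCtrl cells at 24 h, 8 to 13 at 48 h, 8 to 9 for OHT in siRAD21 cells at 24 h, 15 to 16 at 48 h, 4 to 7 and 11 to 13 for siRAD21 OHT against siCtrl, 0 to 0 and 4 to 9 for the interaction, 3 to 7 for the effect of siRAD21 at 48 minus 24 h and 3 to 7 for siCtrl over time. With 2 libraries in most groups, a difference that was not called is not shown to be absent.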
